A study of Mus musculus with 8 samples.

Results

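The subject here is whether mouse macrophages that lack RBP-J respond to TNF with a different set of microRNA changes than wild-type macrophages do. For each microRNA (miRNA) it is given by 1 number, called the interaction: the log2 change with TNF in knockout cells minus the log2 change with TNF in wild-type cells, on the log2(value + 1) scale. A positive interaction means that TNF went with a larger increase, or a smaller decrease, in the knockout. All 8 libraries of the series enter it. Small RNA came from macrophages grown from bone marrow in M-CSF equivalent to 20 ng/ml, for 3 days, from mice on a mixed C57BL/6 and 129 background with over 90% C57BL/6. Wild-type (WT) mice were compared with RBP-J knockout (KO) mice, labelled Rbpjf/f; LysM Cre, in which Cre is driven by the lysozyme M gene of myeloid cells. Cells of each genotype were left without stimulation or were given TNF for 24 hours, which makes 4 groups of 2 libraries. The labels do not say whether the 2 libraries of a group came from separate animals or cultures, so any p-value measures only the spread between these libraries, which may be technical. Small RNA libraries do not measure Rbpj mRNA, so the deletion was not checked in them.

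One library of each group is in a table of CPM (reads of a mature miRNA arm scaled to a fixed library total) and the other is in a table read as RPKM (reads of a miRNA hairpin gene scaled to its length and the library total). There are 452 mature arms of 329 miRNAs with CPM values and 371 hairpin genes of 350 miRNAs with RPKM values, which makes 482 miRNAs in all. Of these, 197 are in both tables and 184 were tested, 13 having a mean under 5 over the 8 libraries. Those in 1 table only, of which 153 have RPKM values alone, were described without a test. Depth was 321327 to 848652 reads per library with CPM values and 13574377 to 21712254 with RPKM values, so a scarce miRNA had few reads in the CPM table.

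A miRNA is cut from a hairpin precursor into a strand of about the length of the sequences shown here, which guides the silencing complex to messenger RNAs that pair with its seed, bases 2 to 8. miRNAs that share a seed can share targets and are grouped as a family. In macrophages TNF signals through NF-kB and is known to induce miR-155, while miR-146a restrains that signalling. RBP-J is the nuclear factor of the Notch pathway that binds DNA, and it is known to restrain the formation of osteoclasts from macrophages in the presence of TNF.

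The sequences of the miRNAs on which the account turns follow, with the seed in capitals. They are from RefSeq on GRCm38.p6, in which 160 of the 184 tested miRNAs had a mature sequence. The first set has the seed shared by miR-34a, miR-449a and miR-449c.
miR-449a-5p: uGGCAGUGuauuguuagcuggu
miR-449c-5p: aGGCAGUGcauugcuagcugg
miR-34a-5p: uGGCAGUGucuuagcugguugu
The second set holds miRNAs averaging at least 10 reads in each table whose interaction was below 0 in both by the most. The let-7 seed is shown as that of the family in which most members lay below 0.
miR-181c-5p: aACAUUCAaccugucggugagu
miR-181d-5p: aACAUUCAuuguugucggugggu
miR-210-3p: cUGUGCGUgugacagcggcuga
miR-223-5p: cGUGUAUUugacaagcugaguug
let-7a-5p: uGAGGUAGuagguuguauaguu
let-7f-5p: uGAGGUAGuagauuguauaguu
The third set holds miRNAs whose interaction was large in 1 table and close to 0 in the other.
miR-182-5p: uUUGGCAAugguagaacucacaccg
miR-183-5p: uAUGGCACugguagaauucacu
miR-24-3p: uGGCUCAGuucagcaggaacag
miR-155-5p: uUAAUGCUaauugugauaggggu

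No miRNA passed the test of a different TNF response between the genotypes. In limma, fitted over all 8 libraries with the table as a block, 0 of 184 passed an adjusted p of 0.05 (0% called, lowest Benjamini-Hochberg adjusted p = 0.988). At an unadjusted p under 0.05 there were also 0, the lowest being 0.0532 for miR-127. On reads recovered from the values, edgeR called 0 after adjustment and 4 at the unadjusted threshold (2.17%), and DESeq2 called 0 and 2 (1.09%). With the RPKM library of unstimulated wild type left out, limma called 2, miR-7a (5.21) and miR-24 (3.94), and with that of wild type with TNF left out it called miR-24 (3.19). The median fitted interaction was 0.07 and the median standard error 1.05, with a range of 0.35 to 1.96. These errors rest on 3 residual degrees of freedom per miRNA, to which limma adds by moderating the variance across miRNAs. With such errors, fitted interactions as large as 3.03 for miR-449a and 2.61 for miR-184 did not reach an unadjusted p of 0.05 in limma. Some miRNAs with smaller values, such as miR-210, nevertheless had nearly equal interactions in the 2 tables.

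The 2 tables gave mostly different interactions for the same miRNA. Within the CPM table the interactions had a median of 0.22 and an SD of 1.52, and within the RPKM table a median of -0.14 and an SD of 0.77. Across the 184 miRNAs, Pearson's r between the tables was 0.090, a description over miRNAs that share the libraries and are not independent replicates. Read minima here and below are means over the 4 libraries of a table, so a single library can hold fewer reads. Without the 48 miRNAs that had a mean under 10 reads in a table r was 0.215. For the 37 with a mean of at least 1000 reads it was -0.139. Relative to the table medians, 47 miRNAs were higher in both tables (25.5%) and 47 lower in both (25.5%). At least 2-fold in both tables, 3 were higher (1.63%) and 4 lower (2.17%). The 10 with the largest same-way value in each direction, ranked on whichever table gave the value nearer to 0 and with at least 10 reads in both, are described next.

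**Figure D1:**
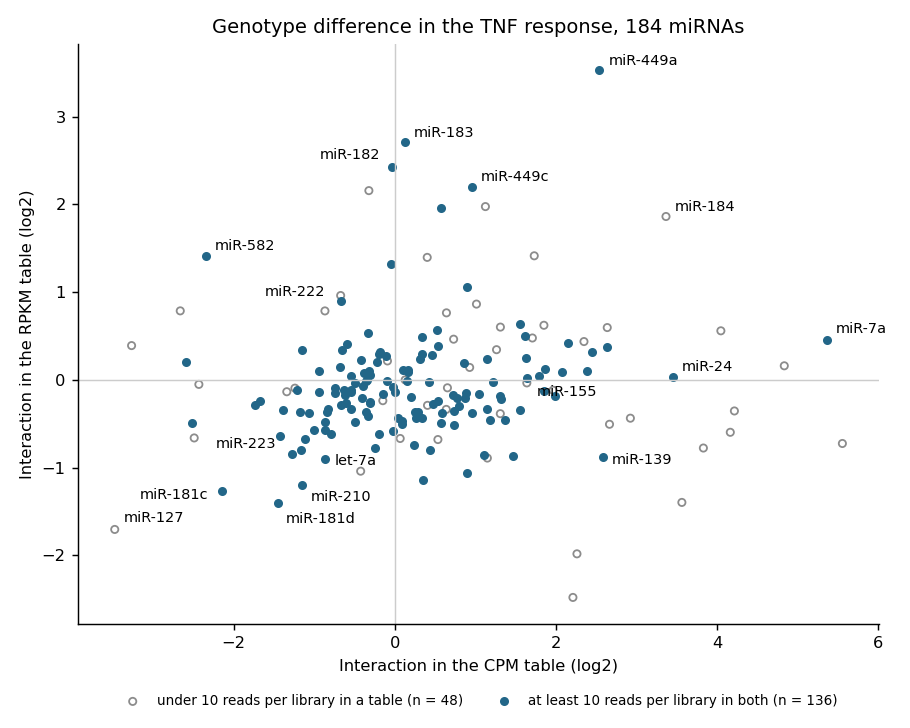
Each point is 1 of the 184 tested miRNAs, with its interaction (log2) in the CPM table on the x axis and in the RPKM table on the y axis. Open points are the 48 with a mean under 10 reads per library in a table. The cloud has no slope to speak of (r = 0.090), and miR-449a in the upper right and miR-181c, miR-181d and miR-127 in the lower left lie away from 0 in both tables.

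From the recovered reads, each within-table interaction was given a 95% interval for counting error only, which treats every read as an independent molecule. The interval lay above 0 in both tables for 12 miRNAs (6.52%) and below 0 in both for 27 (14.7%). These counts are set against 0 and not against the table medians of 0.22 and -0.14. In the RPKM table alone the interval lay above 0 for 44 miRNAs and below 0 for 82, against 44 and 44 in the CPM table. The larger count below 0 is therefore not separate from the shift of the RPKM table. The interval lay above 0 in 1 table and below 0 in the other for 33 (17.9%). These intervals hold no spread between cultures or libraries.

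On the higher side, the miRNAs that share the seed GGCAGUG led the order. In the CPM table miR-449a and miR-449c met the minimum mean of 10 reads mainly through the knockout library with TNF, at 36 reads each. That library also makes their interactions positive. miR-34c met it through the libraries with TNF, at 28 reads in wild type and 30 in the knockout. The place of these miRNAs in the order is therefore not separate from the read minimum. miR-449a and miR-449c are cut from 1 intron of Cdc20b on chromosome 13 (GRCm38.p6, plus strand, Mir449c at 113035983 to 113036091 and Mir449a at 113037534 to 113037624). The family, with miR-34a, miR-34b and miR-34c, is known for restraining the cell cycle, and miR-449 is best known from multiciliated epithelia.

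miR-449a stood at 6.22 CPM without and 7.11 CPM with TNF in wild type, and at 5.66 and 42.4 CPM in the knockout. By RPKM it stood at 137 and 205.7 RPKM in wild type and at 11.1 and 208 RPKM in the knockout. The knockout library with TNF was the highest in both tables, by a small margin over wild type with TNF in the RPKM table. The knockout library without TNF was the lowest by RPKM, while the other 3 CPM libraries held only 2 to 4 reads each and cannot be ordered. The interaction was 2.54 by CPM and 3.53 by RPKM (fitted 3.03 ± 1.48, SE). The counting interval was -1.52 to 6.72 in the CPM table, where the mean was 11 reads, and 2.85 to 4.53 in the RPKM table.

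miR-449c, of the same intron, was listed at 0 CPM in both genotypes without TNF and with TNF stood at 21.3 CPM in wild type against 42.4 CPM in the knockout. Its RPKM values were 16.9 and 28.5 in wild type and 4.93 and 43.9 in the knockout. The knockout library with TNF was the highest in both tables. The interaction was 0.96 by CPM and 2.20 by RPKM (fitted 1.58 ± 1.53), and the CPM value rests on 2 libraries at 0 and depends on the pseudocount. With 1 library left out the fitted value of miR-449c ran from 0 (without unstimulated wild type by RPKM) to 3.16 (without unstimulated wild type by CPM).

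miR-34c, known as a p53 target, had 3.11 and 49.8 CPM in wild type and 0 and 35.3 CPM in the knockout. It had 1905 and 3006 RPKM in wild type and 351 and 863 RPKM in the knockout, so both knockout libraries of the RPKM table lay below both wild-type libraries. The interaction was 1.56 and 0.64 (fitted 1.10 ± 1.53), with a CPM counting interval reaching from -5.69 without an upper bound. Without the CPM library of the knockout with TNF the fitted value was -0.49, and without the RPKM library of unstimulated wild type it was -0.18. miR-34a, a more abundant member with the same seed as miR-449a, lay on the other side in both tables, at -0.86 and -0.48 (fitted -0.67 ± 0.80). miR-34b had an interaction of -2.66 in the CPM table, from 3 reads in 1 library, and 0.79 in the RPKM table.

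Outside that family the higher side was led by miR-1943, miR-486a, miR-7a, miR-149, miR-877, miR-1249 and miR-185. Their fitted interactions ran from 0.94 to 2.90, each with at most 0.50 in the RPKM table except miR-1943 at 1.06. miR-7a, which is abundant in pancreatic islets, had 461 and 8.90 CPM in wild type and 28.3 and 24.7 CPM in the knockout. Unstimulated wild type stood far above the other 3 CPM libraries, with an interaction of 5.36, whereas the 4 RPKM libraries lay within 1015 to 1339 with an interaction of 0.45. miR-877, a miRNA from an intron of Abcf1 on chromosome 17, had 4033 and 359 CPM in wild type and 408 and 225 CPM in the knockout. Its RPKM values were 797 and 1392 in wild type and 828 and 1870 in the knockout, with interactions of 2.63 and 0.37. Without the CPM library of unstimulated wild type the fitted value of miR-877 was -0.67. That of miR-1249 was 1.38, and 0.21 without wild type with TNF by CPM. miR-149, from an intron of Gpc1, differed from these in that the low CPM library was the unstimulated knockout, at 33.98 CPM against 124.5 to 153 CPM in the other 3.

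For miR-7a and miR-185 the arms disagreed within the CPM table. The 5p arm of miR-7a had an interaction of 8.24 and its 3p arm -4.44, the latter on 0 to 8 reads. The 5p arm of miR-185 had 4.88 and its 3p arm -3.05, and with only the most abundant arm and copy the fitted interaction of miR-185 was -1.40 in place of 0.94. Among the 10 miRNAs of the higher side, 6 had a counting interval above 0 in both tables. In 7 of the 10 the unstimulated wild-type library was the highest of the CPM table, and in 6 the unstimulated knockout library was the lowest of the RPKM table. The choice of positive interactions favours both positions. The values of miR-486a are further uncertain because miR-486b comes from the opposite strand of the same hairpin region with a near-identical sequence.

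**Figure D2:**
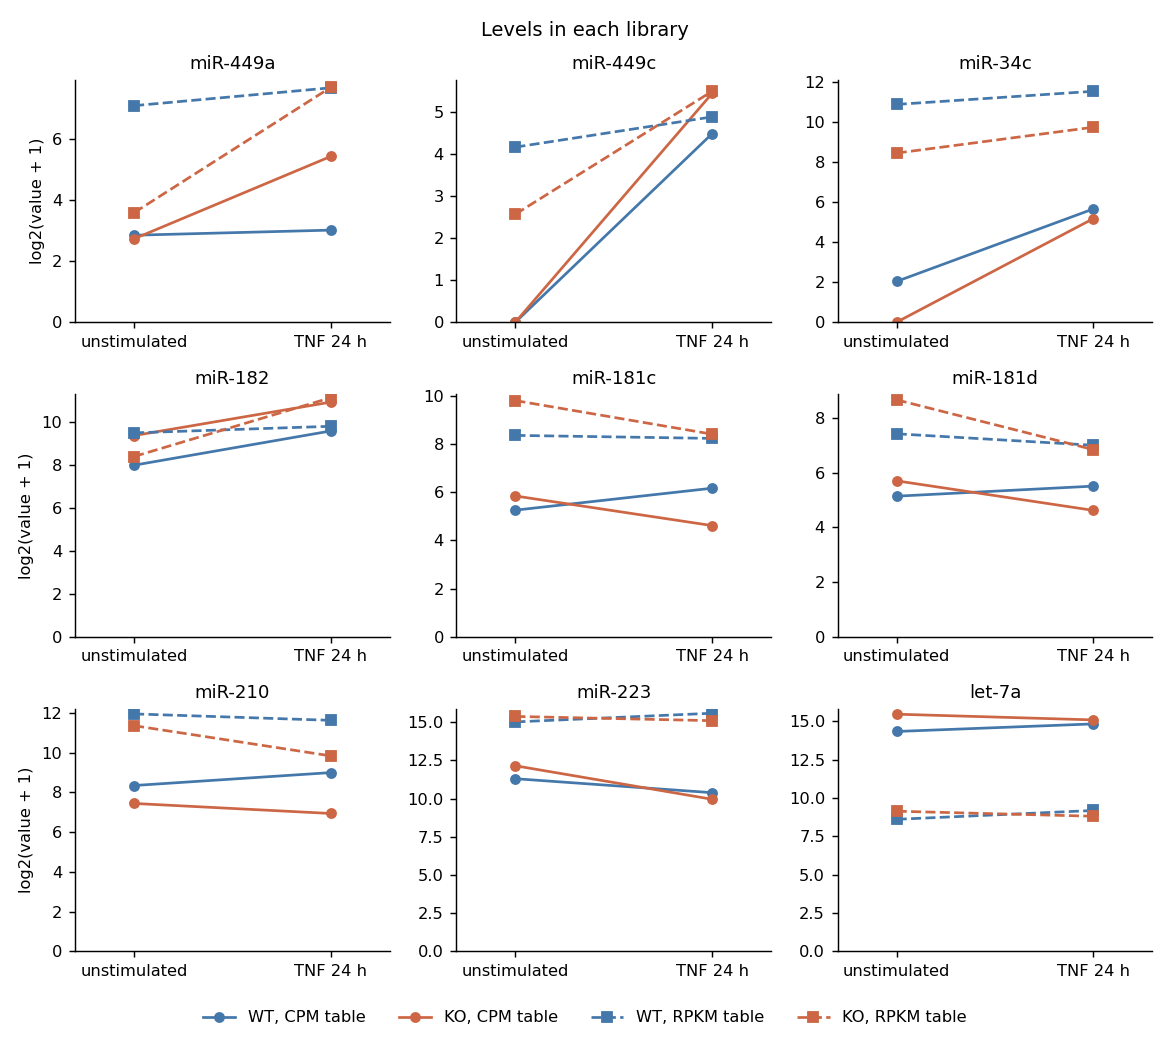
Levels of 9 miRNAs in every library as log2(value + 1), without stimulation (left) and after 24 hours of TNF (right), in wild type (blue) and knockout (orange), with the CPM table as solid lines and the RPKM table as dashed lines; each point is 1 library. For miR-449a the knockout lines climb more steeply in both tables, for miR-182 only the dashed lines differ in slope, and for miR-181c, miR-210 and let-7a the knockout lines slope downward while wild type differs between tables or slopes upward.

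On the lower side, miR-181d and miR-181c led. They lie next to each other on chromosome 8 (minus strand, the mature strands at 84178759 to 84178781 and 84178924 to 84178945) and share the seed ACAUUCA with miR-181a and miR-181b, a family known from lymphocyte development. miR-181c had 37.4 and 71.1 CPM in wild type and 56.6 and 23.6 CPM in the knockout. It had 329 and 302 RPKM in wild type and 900 and 341 RPKM in the knockout. The knockout library with TNF lay below the unstimulated knockout library in both tables, and the unstimulated knockout was the highest of the RPKM table. The interaction was -2.14 and -1.27 (fitted -1.71 ± 1.10), with counting intervals of -3.63 to -0.78 and -1.51 to -1.04.

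miR-181d had 34.2 and 44.5 CPM in wild type and 51.0 and 23.6 CPM in the knockout. Its RPKM values were 170 and 127.1 in wild type and 404 and 114 in the knockout, again with the unstimulated knockout highest in both tables. The interaction was -1.45 and -1.40 (fitted -1.43 ± 1.10). The more abundant members of the family did not share this size: miR-181a had -0.35 and 0.00, and miR-181b -0.94 and 0.10.

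miR-210, which hypoxia induces, had nearly the same interaction in the 2 tables. It stood at 324 and 509 CPM in wild type and at 173 and 121 CPM in the knockout. RPKM values were 3945 and 3153 in wild type and 2616 and 912 in the knockout, so the knockout with TNF was the lowest of the 4 in both tables. The interaction was -1.16 and -1.20 (fitted -1.18 ± 0.82), with counting intervals of -1.75 to -0.57 and -1.30 to -1.10. The direction of the wild-type response itself differed, with 0.65 by CPM and -0.32 by RPKM.

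miR-223, a miRNA of the myeloid lineage, had 2515 and 1334 CPM in wild type and 4522 and 989 CPM in the knockout. It had 33103 and 49045 RPKM in wild type and 42379 and 35001 RPKM in the knockout. The interaction was -1.28 and -0.84 (fitted -1.06 ± 0.75), and its 5p and 3p arms gave -1.14 and -1.13 in the CPM table. As for miR-210, the wild-type response lay on opposite sides of 0 in the tables, at -0.91 and 0.57.

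let-7a, of the family that restrains proliferation in differentiated cells, had 20723 and 29169 CPM in wild type and 45260 and 34958 CPM in the knockout. It had 390 and 581 RPKM in wild type and 562 and 448 RPKM in the knockout. The order was thus the same in both tables for the change with TNF, upward in wild type and downward in the knockout. The interaction was -0.87 and -0.91 (fitted -0.89 ± 0.61). Its reads are shared with near-identical family members, which the 2 tables divide differently, so the level of let-7a alone is uncertain.

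The other 5 of the lower side were miR-350, miR-501, miR-1983, miR-101a and miR-148a, with fitted interactions of -0.98, -0.89, -1.03, -0.71 and -0.51. That of miR-1983 ran from -2.05 to -0.01 with 1 library left out, the ends being without wild type with TNF by RPKM and by CPM. miR-148a, which is known to promote osteoclast formation, had 3735 and 3221 CPM in wild type and 3970 and 2887 CPM in the knockout. Its RPKM values were 53051 and 59418 in wild type and 55939 and 36502 in the knockout, which made the knockout with TNF the lowest library in both tables. TNF went with a lower value in the knockout in both tables for 9 of these 10, against 25.5% of the 184, a count that the choice of negative interactions favours. The counting interval lay below 0 in both tables for 8 of the 10.

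**Figure D3:**
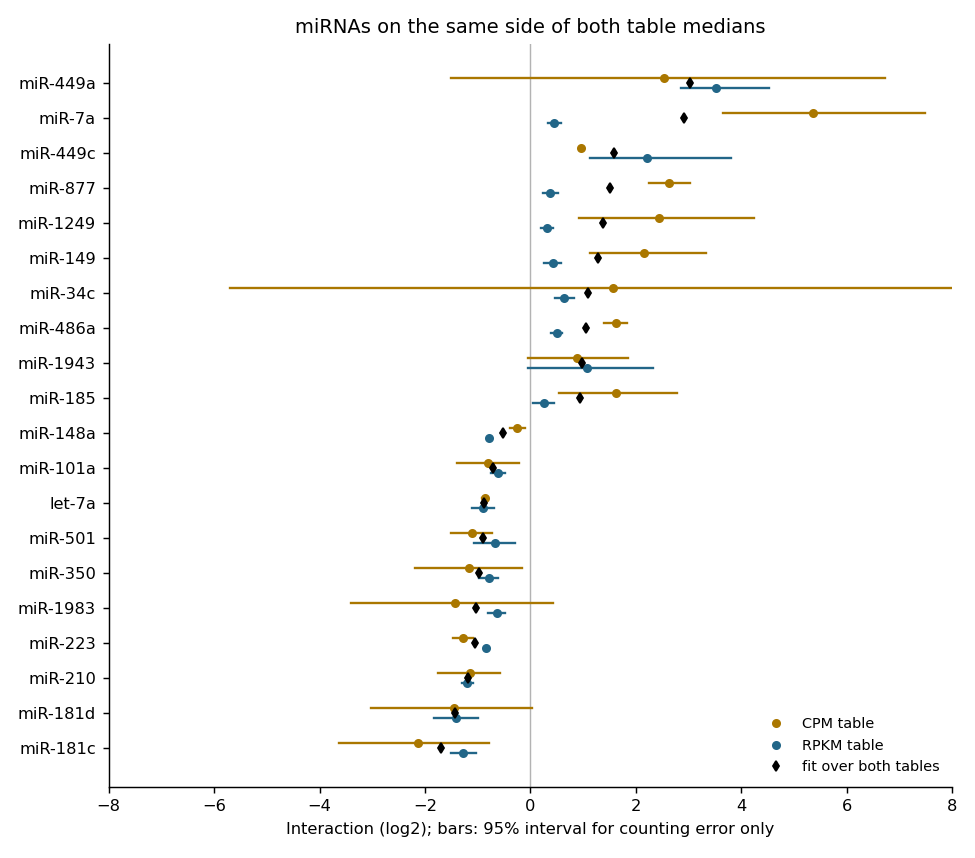
Interactions (log2, x axis) of the 10 miRNAs of each direction named above, within the CPM table (ochre) and the RPKM table (blue), with 95% intervals for counting error only as bars (that of miR-34c is cut at 8, and miR-449c has none in the CPM table), and the fit over both tables as black diamonds. On the lower side some pairs of values are close, such as -1.16 and -1.20 for miR-210. Others are less so, such as -2.14 and -1.27 for miR-181c and -0.25 and -0.78 for miR-148a. Several of the higher side, such as miR-7a at 5.36 and 0.45, are far apart. The choice of same-way values favours agreement in direction.

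With no minimum on reads, miR-184 and miR-1960 joined miR-449a as the first 3 of the higher side and miR-127 joined miR-181d and miR-181c as the first 3 of the lower. miR-127 had 0 to 3 reads in each CPM library, with 0 and 5.34 CPM in wild type and 2.83 and 1.18 CPM in the knockout. By RPKM it had 51.3 and 131 RPKM in wild type and 63.0 and 48.6 RPKM in the knockout, and the fitted interaction was -2.59 ± 1.18. miR-184 had 135 and 60.0 RPKM in wild type and 6.81 and 11.7 RPKM in the knockout, with a mean of 2.00 reads in the CPM table and a fitted interaction of 2.61 ± 1.25. miR-1960 had means of 2.50 and 18.5 reads in the 2 tables (fitted 1.57 ± 1.39).

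A change with TNF of opposite direction in the 2 genotypes, and the same in both tables, was seen for 7 miRNAs. TNF went with a higher value in wild type and a lower one in the knockout for 5 of the 184 (2.72%), namely miR-127, let-7a, miR-532, miR-101a and miR-199a. The reverse held for 2 (1.09%), miR-184 and miR-669a. miR-532, from a cluster in an intron of Clcn5 on the X chromosome, stood at 663 and 766 CPM in wild type and 1138 and 581 CPM in the knockout. By RPKM it had 11769 and 13849 RPKM in wild type and 11002 and 10057 RPKM in the knockout, and its fitted interaction was -0.77 ± 0.64.

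Other miRNAs pointed in opposite directions in the 2 tables. By the smaller of its 2 sizes miR-582 led these, among those with at least 10 reads in both, with -2.34 by CPM and 1.42 by RPKM. It had 105.8 and 562 CPM in wild type and 33.98 and 35.3 CPM in the knockout, but 716 and 1095 RPKM in wild type and 1476 and 6014 RPKM in the knockout. The knockout libraries were thus the lower of the CPM table and the higher of the RPKM table. miR-222, which acts on cell cycle inhibitors, had -0.67 and 0.90, at 26976 and 75036 CPM in wild type and 22699 and 39671 CPM in the knockout. Its RPKM values were 88272 and 124157 in wild type and 64520 and 168868 in the knockout, so the highest was wild type with TNF in the CPM table and the knockout with TNF in the RPKM table. miR-139 (2.58 and -0.88), miR-374b (1.46 and -0.87) and miR-338 (1.10 and -0.85) were higher in the CPM table and lower in the RPKM table.

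The cluster of miR-183 and miR-182 showed its difference between genotypes in the RPKM table alone. miR-182, known from mouse work to promote osteoclast formation, had 717 and 887 RPKM in wild type and 334 and 2232 RPKM in the knockout. In the CPM table it had 252 and 763 CPM in wild type and 657 and 1936 CPM in the knockout. Both tables had the highest level in the knockout with TNF, but the change with TNF was nearly equal in the genotypes of the CPM table, at 1.59 and 1.56. The interaction was -0.04 in the CPM table (counting interval -0.45 to 0.37) and 2.43 in the RPKM table (2.24 to 2.63), and the fitted value was 1.20 ± 0.93. miR-183 had 0.12 and 2.71 (fitted 1.42 ± 1.13), and miR-96 of the same cluster had RPKM values alone, at a mean of 1.25 reads.

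For miR-155 it was the CPM table that differed. It stood at 177 and 391 CPM in wild type and at 156 and 1075 CPM in the knockout, an interaction of 1.64. In the RPKM table it stood at 2655 and 8523 RPKM in wild type and at 2814 and 9177 RPKM in the knockout, an interaction of 0.02 (counting interval -0.06 to 0.11). TNF went with a higher value in each genotype of each table, and the fitted interaction was 0.83 ± 0.76.

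Lists of miRNAs by role and family were read against the background of the 184, of which 0% were called, and no member of any list passed. Of the 184, 25.5% lay above both table medians and 25.5% below both, the shares against which the counts below stand. Of the 16 tested TNF and NF-kB responsive miRNAs, 4 lay above both table medians (miR-155, miR-125a, miR-147 and miR-365) and 2 below both (miR-21a and miR-210), with a median fitted interaction of 0.09. Within that list miR-146a, the feedback inhibitor, had 0.79 and -0.30, and miR-365 had 0.57 and 1.96 with a mean of 40.5 reads in the RPKM table. Of the 13 Notch or RBP-J linked miRNAs, 5 were above and 3 below, with a median of 0.83. The 5 were miR-34c, miR-449a, miR-449c, miR-155 and miR-152, and the 3 were miR-34a, miR-148a and miR-223. Of the 10 osteoclast promoting miRNAs 1 was above (miR-125a) and 3 below both medians (miR-21a, miR-29a and miR-148a), with a median of -0.06. Of the 9 osteoclast restraining miRNAs 3 were above (miR-155, miR-34c and miR-125a) and 2 below (miR-34a and miR-26a), with a median of 0.25. Of the 9 myeloid miRNAs miR-155 was above, and miR-223, miR-142a and miR-21a were below, with a median of 0.08. The lists overlap, and miR-155 stands in 4 of them. miR-125a stands in both osteoclast lists, of opposite roles. Its RPKM interaction of -0.13 was below 0 and lay above the table median by only 0.007.

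Most let-7 miRNAs had an interaction below 0 in both tables, and none passed the test. Of the 8 tested members with the seed GAGGUAG, 7 had an interaction below 0 in both tables, against 28.8% of all 184. Below both table medians were 4 of the 8, against 25.5% of all 184. The exception was let-7i, with -0.55 and 0.04. The fitted values of the 8 ran from -0.89 ± 0.61 for let-7a and -0.87 ± 0.65 for let-7c to -0.19 ± 0.58 for miR-98, and none exceeded 2 standard errors. Family members share reads, so the 8 are not independent.

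The other families were mixed, against 25.5% of the 184 above both medians and 25.5% below. Of the 9 tested members of the miR-17/92 clusters, which promote proliferation, 3 were above and 2 below both medians, with a CPM median of -0.54 and an RPKM median of 0.24. The clusters of miR-23, miR-27 and miR-24 had 1 of 5 above and 1 below, the miR-15/16 family 1 of 5 and 1 of 5, the miR-30 family 1 of 5 and 0, and the miR-29 family 0 of 3 and 1. Of the 4 miR-181 miRNAs, 2 were below both medians, and of the 5 of the family of miR-34 and miR-449 3 were above and 1 below. Of the pair miR-99b and miR-125a 1 was above both, and of the pairs miR-221 with miR-222 and miR-182 with miR-183 none was above or below both.

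**Figure D4:**
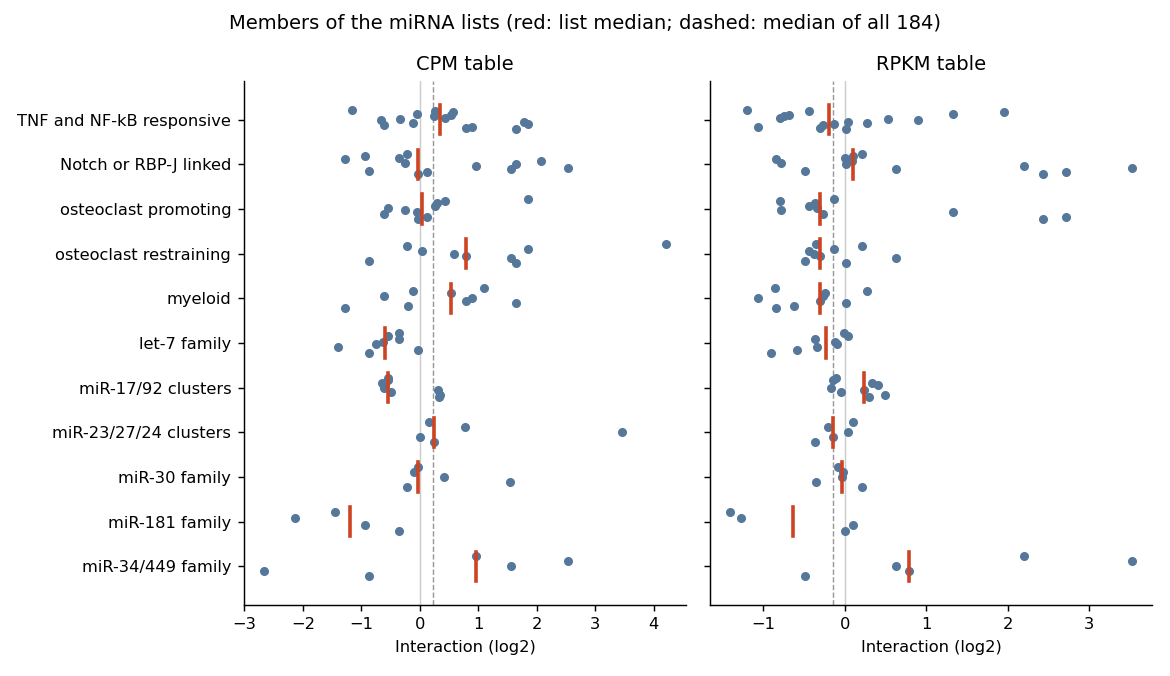
Interactions (log2) of the tested members of 11 lists in the CPM table (left) and the RPKM table (right); each point is 1 miRNA, red bars are list medians and dashed lines the median of all 184. The let-7 points lie at or left of 0 in both panels apart from let-7i at 0.04 in the RPKM table, while the miR-17/92 clusters have a median of -0.54 on the left and 0.24 on the right.

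Of all miRNAs, 47.7% had an interaction within 2-fold by CPM and 81.4% by RPKM. The 10 most abundant of the CPM table were miR-27b, let-7f, miR-22, miR-191, miR-21a, miR-423, miR-92a, miR-222, let-7a and miR-16, with interactions of -0.87 to 1.22, and 9 of the 10 lay within 2-fold. By RPKM they were let-7f, miR-10a, miR-21a, miR-22, miR-27b, miR-30d, miR-92a, miR-99b, miR-125a and miR-146a, at -0.80 to 0.41, with all 10 of them within 2-fold. miR-21a, a miRNA abundant in activated macrophages, was below 0 in both tables at -0.61 and -0.26 (fitted -0.44 ± 0.42). miR-125a had 1.85 by CPM and -0.13 by RPKM.

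miRNAs listed in 1 table have 1 library per group and no test. Of the 23 such miRNAs of the CPM table with a mean of at least 20 reads, 5 were at least 2-fold higher (21.7%) and 5 at least 2-fold lower (21.7%). let-7e had 2894 and 15490 CPM in wild type and 3268 and 7064 CPM in the knockout, so its level with TNF was lower in the knockout and the interaction was -1.31 (counting interval -1.44 to -1.17). The other 4 on the lower side were miR-7688 (-1.70), miR-3057 (-1.13), miR-1839 (-1.12) and miR-1843b (-1.07). All 5 of the higher side, miR-3535, miR-3473a, miR-690, miR-3068 and miR-486b, had their highest value in the unstimulated wild-type library, a position that a positive interaction favours. The reads of miR-486b may be those of miR-486a. For miR-690 the values were 1332 and 33.8 CPM in wild type and 76.5 and 25.9 CPM in the knockout (interaction 3.74).

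Of the 23 miRNAs of the RPKM table alone with at least 20 reads, 2 were at least 2-fold higher (8.7%) and 7 at least 2-fold lower (30.4%). The first 5 on the lower side were miR-411 (-2.50), miR-541 (-2.33), miR-196b (-1.51), miR-218 (-1.30) and miR-363 (-1.26). miR-196b, from a Hox gene cluster, had 216 and 332 RPKM in wild type and 116 and 62.4 RPKM in the knockout, so TNF went with a higher value in wild type and a lower one in the knockout. On the higher side were miR-193a (1.71), miR-1938 (1.05), miR-1247 (0.97), miR-193b (0.75) and miR-1982 (0.63). miR-193a had 21.6 and 45.4 RPKM in wild type and 8.14 and 60.3 RPKM in the knockout, and its counting interval of 0.50 to 3.26 was the only one of these 5 that lay above 0.

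miR-411, miR-541 and miR-127 lie in the imprinted Dlk1-Dio3 region of chromosome 12, whose miRNAs are known from embryonic and mesenchymal cells and are scarce in adult blood cells. Of the 33 hairpins of the RPKM table that lie between the genes Dlk1 and Dio3, 28 had an interaction below 0, against 60% of the 350 miRNAs there. In 23 of the 33 the wild-type library with TNF was the highest, against 44.3% of the 350. These counts over the whole region were made after the values were seen. Only 5 of the 33 had a mean of at least 10 reads per library. Of these miR-127, miR-411, miR-434 and miR-541 lay below 0 and miR-1247 above, and wild type with TNF was the highest library in all 5. The others above 0 were miR-369, miR-665, miR-667 and miR-673, each under 10 reads. All 9 of the 12 miRNAs of the marker list for this region that have RPKM values lay below 0. miR-541, for example, had 10.8 and 53.4 RPKM in wild type and 8.95 and 8.19 RPKM in the knockout. The summed level of these 9 was 78.4 and 256 RPKM in wild type and 100 and 77.0 RPKM in the knockout. In the CPM table miR-127 alone was listed, at 0 to 3 reads.

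Markers of other cell types move with these values in part. Stromal miRNAs did so in different directions. miR-214, with RPKM values alone, had 199.3 and 503.4 RPKM in wild type and 89.7 and 116 RPKM in the knockout, an interaction of -0.97. The more abundant miR-143 had 16593 and 51576 RPKM in wild type and 3380 and 11410 RPKM in the knockout, an interaction of 0.12, and 1.86 by CPM. miR-152 had 0.09 by RPKM and 2.08 by CPM. miR-145, with RPKM values alone, had 352 and 1118 RPKM in wild type and 110 and 232 RPKM in the knockout, an interaction of -0.59. It is named miR-145a in the list, so it was not matched and is not in the sums below. The list of 8, with 6 matched by name in each table, summed to 188518 and 319277 RPKM in wild type and 260763 and 325190 RPKM in the knockout. The CPM sums were 25784 and 11675 in wild type and 29026 and 21930 in the knockout. miR-10a makes up most of these sums, at 167395 RPKM and 25270 CPM in unstimulated wild type. Of the 5 tested members of the list 2 lay above and 1 below both medians, against 25.5% of the 184 in each direction. In RNA from a whole culture, fewer cells of a type and less RNA per cell cannot be told apart, and the part of other cells in the interactions was not tested.

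The remaining marker lists were small, and their counts stand against 25.5% of the 184 above both medians and 25.5% below. Lymphoid miRNAs had 1 of 5 above both medians and none below, and epithelial miRNAs 2 of 7 above and 1 below, the latter on sums of 97.8 to 349 CPM and 459 to 1277 RPKM. miR-205 stands in both of these lists, so the lymphoid list is not of lymphoid markers alone. The erythroid list had 1 tested member, miR-486a, and summed to 6570 CPM in unstimulated wild type against 1995 to 2631 CPM in the other 3 libraries. That sum adds miR-486a and miR-486b, at 3302 and 3268 CPM in unstimulated wild type. Their sequences are near-identical and their values nearly equal in each library, so the same reads may be counted in both. miR-126a of endothelium and platelets had 1.15 and -0.89. Of muscle and liver miRNAs miR-122 was tested, and it lay above both medians at 1.01 and 0.86 on sums of at most 34.2 CPM and 6.41 RPKM for the whole list.

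Among the larger positive interactions, 1 library of each table was most often the extreme one. Of the 53 miRNAs with an interaction of at least 1 in the CPM table (28.8% of the 184), the unstimulated wild-type library was the sole highest in 44. Wild type with TNF was the sole lowest in 28 of them. Of the 13 such miRNAs in the RPKM table (7.07%), the unstimulated knockout library was the sole lowest in 12 and the knockout with TNF the sole highest in 9. A positive interaction by its definition favours these positions, so the counts are not separate from the choice of these miRNAs. The lowest row maximum of the CPM table was 5.34 CPM. There 1 read is 3.11 CPM in unstimulated wild type and 1.18 CPM in the knockout with TNF. A minimum near that value would list a scarce miRNA on fewer reads in unstimulated wild type. How far this favours that library as the highest was not tested. The shares over all 184 were not taken. Among negative interactions of that size, the knockout with TNF was the sole lowest in 13 of 25 in the CPM table and in 8 of 10 by RPKM. In the CPM table unstimulated wild type was the sole lowest in 9 of the 25. A negative interaction by its definition favours these positions too. The SD over miRNAs of 1 library minus the mean of the other 3 was 1.54 for unstimulated wild type in the CPM table, against 1.06 to 1.17 for the others. In the RPKM table it was 0.88 for the unstimulated knockout, against 0.54 to 0.69. miR-24 is an abundant example, with 37199 CPM in unstimulated wild type, 1385 CPM with TNF, and 3460 and 1411 CPM in the knockout. Its RPKM values were 7907 and 12915 in wild type and 5238 and 8775 in the knockout, so the interaction was 3.45 by CPM and 0.04 by RPKM. Without the CPM library of unstimulated wild type the fitted interaction of miR-24 was -0.45, against 1.74 with all 8 libraries.

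The CPM table gives the 2 arms of a hairpin separately, which allows the interaction to be read more than once from the same libraries. Of 56 miRNAs with a mean of at least 10 reads per library for both arms, 29 had both arms on the same side of the median interaction. Pearson's r between the arms was 0.020 over these 56 miRNAs, which share all 4 libraries. The change with TNF alone had r = 0.599 between arms in the knockout and 0.227 in wild type. With at least 50 reads for both arms (25 miRNAs), r was 0.473 for the interaction, 0.695 for TNF in the knockout and 0.619 in wild type. With at least 100 reads (15 miRNAs), r was 0.343, 0.772 and 0.856. These read minima were chosen after seeing the data.

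**Figure D5:**
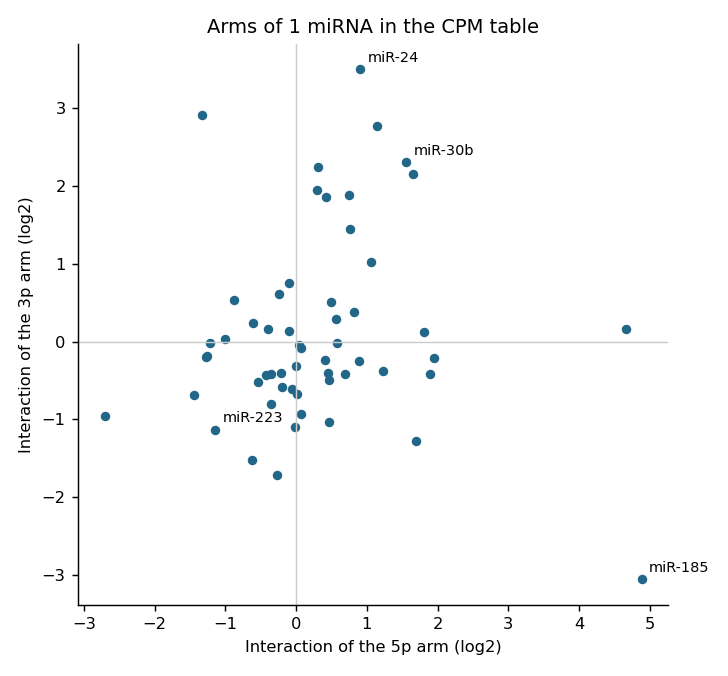
Interactions (log2) of the 5p arm (x axis) and the 3p arm (y axis) in the CPM table. Each point is 1 of the 56 miRNAs with a mean of at least 10 reads per library for both arms. The points show no common slope (r = 0.020), miR-223 has -1.14 and -1.13, and miR-185 has arms on opposite sides of 0 at 4.88 and -3.05.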

How the data were processed

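Small RNA was sequenced in 8 libraries (TruSeq small RNA kit, per the labels' protocols), and base calls were made with CASAVA 1.8.2, per the submitters' processing notes. For the aligner, the read counter and the build, no name is given in these sources. The authors deposited 1 table of CPM for mature arms and 1 table with no unit name. The latter was read as RPKM per hairpin gene, since the deposited RPKM values times the gene length in GENCODE M21 (363 of 371 identifiers) were whole multiples of 1 read, within 0.1 reads, for 94.7% to 95.3% of low values. For CPM values 100% were whole. Reads were recovered from these steps, rounded, and used for the alternatives and for exact conditional intervals of the odds ratio (large-sample intervals above 5000 reads). Listed miRNAs took 44.6% to 65.7% of reads in the RPKM table.

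Arms and hairpin copies were summed per miRNA. The test was limma 3.58.1 (R 4.3.3; lmFit, eBayes with trend) on log2(value + 1), two-sided, for a mean of at least 5, with 4 groups and the table as a block (3 residual degrees of freedom) and Benjamini-Hochberg adjustment over 184 miRNAs. The log2(value + 1) scale understates changes of low miRNAs. The alternatives were edgeR 4.0.16, DESeq2 1.42.0, other scalings, pseudocounts, filters, arms and left-out libraries, and limma was tested on simulated data. Named miRNAs were the 10 with the largest smaller-of-2 same-way interaction in each direction (at least 10 reads in both tables), the first 3 without that minimum, the 5 most opposed, the first 5 each way in 1 table only (at least 20 reads), the 10 most abundant, and members of 24 lists. miR-24 was singled out after its values were seen. The miRNAs, lists and rules were chosen with earlier results of these data known. The CPM table is replicate 1 and the RPKM table replicate 2, after the sample titles. Same-numbered libraries deviated together (r of 0.748 to 0.915 across miRNAs), which the change of unit alone could also give, so the pairing of samples by number is not separate from the unit.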

Additional observations from a re-analysis of the deposited data

How the results depend on the processing

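The 29 named miRNAs followed here were mostly chosen for lying on the same side of both table medians. The others were miR-155, miR-182, miR-183, miR-34a, miR-365 and miR-24, and the 5 most opposed were not included. That choice favours a kept direction, and with 0 of 184 past the threshold a kept side is favoured too. Under 20 alternative settings, 567 of 575 values of these 29 kept their direction and side of the threshold. Of the 29, 25 were reversed by none. Those reversed were miR-877 (-0.67 to 3.67 with 1 library left out, lowest without unstimulated wild type by CPM), miR-24 (-0.45 to 3.94, likewise) and miR-34c (-0.49 to 2.68, lowest without the knockout with TNF by CPM, and -0.18 without unstimulated wild type by RPKM), as well as miR-185 (-1.40 with the most abundant arm and copy only, since its arms oppose each other). The number called by limma after adjustment was 0, and 0 to 2 when each library was left out. miR-7a (5.21, adjusted p = 0.0343) and miR-24 (3.94, adjusted p = 0.0365) passed without the RPKM library of unstimulated wild type, and miR-24 (3.19, adjusted p = 0.0324) without the RPKM library of wild type with TNF, where the CPM table weighs more. For miR-24 and miR-7a these are the only such passes, and the lowest adjusted p with all 8 libraries was 0.971. The count at an unadjusted p under 0.05 was 0 in limma, 4 in edgeR, 2 in DESeq2 and 1 to 14 with a library left out, 14 being without the RPKM library of unstimulated wild type. The median interaction was 0.066, and -0.327 to 0.499 with a library left out. At least 10 reads in each table left 4 miRNAs at 2-fold or more the same way in both, against 7. The replicate block is the table: without it limma called 0 and the median was 0.066. Leaving out a library gives no within-table interaction, so r and the 2-fold counts have no such value. The cause of these differences was not tested. Reads of the CPM table limit scarce miRNAs, and intervals cover counting error only.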

Other observations

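The arms of miR-185 lay on opposite sides of 0. Its 5p arm had 36, 1, 3 and 5 reads in unstimulated wild type, wild type with TNF, unstimulated knockout and knockout with TNF, and its 3p arm had 1, 22, 19 and 54 reads in the same order. For miR-24 the 3p arm had 11873, 686, 1168 and 1040 reads, and the 5p arm of its second hairpin 80, 93, 52 and 156. The interaction was 3.49 for the former and 0.91 for the latter. The 5p arm of miR-7a stood at 461 CPM in unstimulated wild type and at 3.56, 5.66 and 18.9 CPM in the other 3 libraries.

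Base composition and abundance were set beside the interactions as a description. Over the 160 tested miRNAs with a RefSeq sequence, r with GC content was 0.243 by CPM and 0.111 by RPKM. With the log2 of mean reads it was -0.229 and -0.143.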
